A study of Mus musculus with 8 samples.

Results

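The cell cycle and DNA replication genes are a set of 51 mouse genes that encode cyclins, cyclin-dependent kinases, origin licensing proteins, pocket proteins, E2F factors and mitotic regulators. CpG methylation was read at their gene ends, each end being the stretch from 1000 bp outside to 500 bp inside the first or last base of the RefSeq gene model in mm10 coordinates. Methylated and unmethylated reads were summed over each end, and an end was kept if it had 3 or more CpG positions and no library with fewer than 20 reads. The rule used no methylation value. It kept 42 of the 102 member ends, which belong to 40 of the 51 genes, out of 15583 ends of 14328 genes kept among all annotated genes. Of the 42 ends, 31 lie at the 5′ end of their gene and 1 at the 3′ end, while the strand of 10 was not given in the promoter table used to orient them.

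The libraries are reduced representation bisulfite sequencing (RRBS) libraries of I1DN leukaemic progenitor cells, a mouse leukaemia gated as cKit+/Cd11b- and taken from mice that had been transplanted with it. RRBS reads CpG-rich fragments after bisulfite treatment, which converts unmethylated but not methylated cytosine. There were 4 treatment groups, each with 2 libraries and the time label of 5 days: AG120 plus AZA, AG120, AZA and Vehicle. AG120 is ivosidenib, an inhibitor of mutant IDH1, and AZA is azacitidine, a cytidine analogue that traps DNA methyltransferases. All groups carry the same leukaemia. The labels do not spell out its alleles, do not give the age, sex or strain of the mice, and do not say whether a library came from 1 mouse or from several, so the spread between libraries may be partly technical. RRBS holds no expression value, so the gate could not be checked against its surface proteins. The Kit end averaged 6.16% methylation, with 19.4% and 0.137% in the Vehicle libraries, and no end of Itgam, which encodes Cd11b, was kept. Of 22 marker genes 6 had a kept end. Means were 1.94% and 1.59% at the progenitor genes Cd34 and Flt3. They were 0.572% at the T cell gene Cd4, 1.81% at the megakaryocyte gene Itga2b and 21.0% at the stromal gene Pdgfrb. These levels do not identify the cells.

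Cells divide by switching cyclin-dependent kinases on and off in sequence. In G1, D-type cyclins with Cdk4 or Cdk6 and E-type cyclins with Cdk2 phosphorylate the pocket proteins Rb1, Rbl1 and Rbl2, which releases E2F factors to transcribe genes for DNA synthesis. Origins are licensed when Orc, Cdc6 and Cdt1 load the Mcm helicase, and Cdk1 with B-type cyclins drives mitosis. Most promoters of such genes are CpG islands, which are unmethylated in dividing and in resting cells, and their activity follows E2F, Myb and pocket protein complexes.

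The 8 libraries differed in depth and in what they covered. On chromosomes 1 to 19 and X, the cytosine calls per library lay between 90158614 and 97503229 with AG120 plus AZA, between 98411332 and 109857317 with AG120, between 128251171 and 129863844 with AZA, and between 119219434 and 130580155 with Vehicle. The median number of reads per member end was 2501 and 1934 with AG120 plus AZA, 2852 and 2343 with AG120, 3908 and 3626 with AZA, and 3769 and 4565 with Vehicle. The share of calls that were methylated over the genome was 50.4% and 47.9% with AG120 plus AZA, 41.4% and 49.8% with AG120, 39.1% and 36.8% with AZA, and 34.0% and 32.5% with Vehicle. Depth, covered positions and this share thus moved with the groups. Only 4.86% of the member CpG positions were read in all 8 libraries, and a position was read in a median of 4. What part they had in the group differences below was not tested, except where values over positions read in both groups are given.

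Nearly all member ends were unmethylated in every group. The median of their mean levels over the 8 libraries was 1.13% methylated reads, against 2.66% for all kept ends and 2.01% for all kept 5′ ends. Of the 42 member ends, 40 (95.2%) averaged under 5%, against 59.8% of all kept ends and 68.7% of kept 5′ ends. Over those 40 ends, 200 of the 320 values per end and library (62.5%) were under 1%, and 3 reached 10% or more. These were Aurkb in the second and Rbl2 in the first AG120 plus AZA library, and Ccnd1 in the first Vehicle library. The median range from the lowest to the highest library was 4.02 percentage points for the member ends and 9.04 points for all kept ends. Of the 42 kept member ends 31 are known 5′ ends, and the contrast with all kept ends was not tested.

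**Figure D1:**
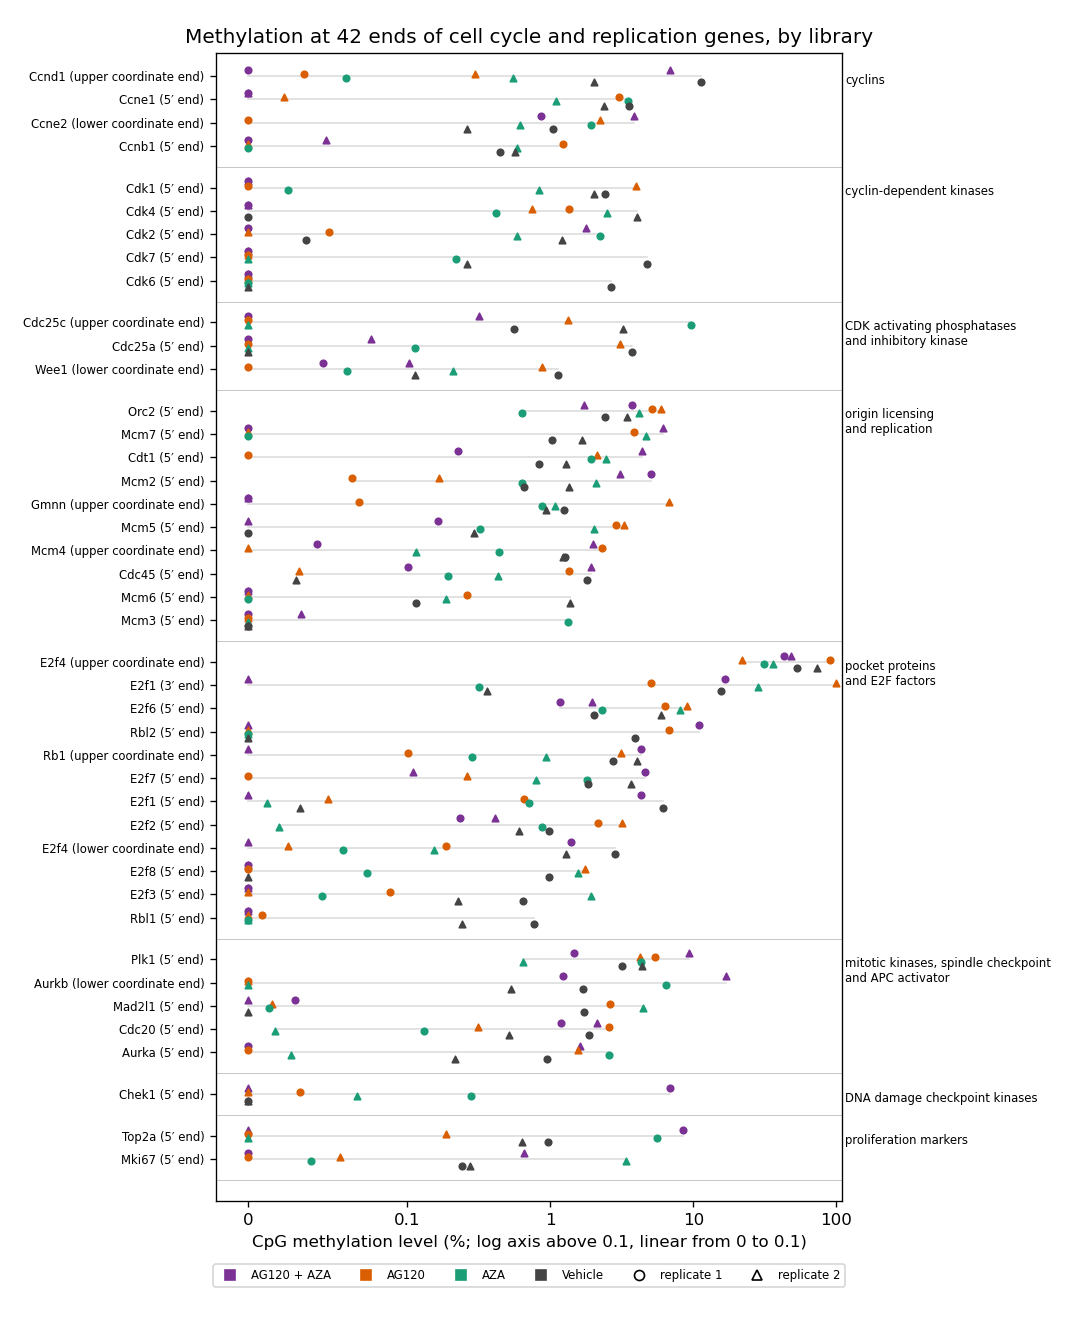
Each row is 1 gene end, and each symbol is the methylation level in 1 library (percent of reads at CpG positions that were methylated, on an axis that is linear to 0.1% and logarithmic above), coloured by treatment, with circles for replicate 1 and triangles for replicate 2. The ends are ordered by role and mean level, and 40 of the 42 averaged under 5%. The upper coordinate end of E2f4 and the 3′ end of E2f1 have far higher means, that of E2f1 through some of its libraries only.

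The members that could not be measured by the rule were Bub1, Bub1b, Ccna2, Ccnb2, Ccnd2, Ccnd3, Cdc25b, Cdc6, Chek2, Orc1 and Pcna. Chek2, Orc1 and Pcna had no read CpG position within either gene-end window. The Orc1 start of the RefSeq promoter table lies outside these windows, and 2 motif cytosines there were read, with no methylated read. The values that follow are for the end of each gene with the most reads, and whether it is the 5′ or the 3′ end was not recorded. Bub1, Ccnb2, Ccnd2 and Cdc6 missed the minimum there through 1 or more libraries with 8, 16, 10 and 8 reads. Their pooled levels there were 1.81%, 1.82%, 4.87% and 0.513%. Bub1b, Ccnd3 and Cdc25b had no read there in 6, 4 and 1 libraries. Ccna2, which encodes the S and G2 phase cyclin A2, had only 4 positions at that end. Of their 1186 reads over all libraries 92.4% were methylated, which does not give the state of its promoter.

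Among the cyclins, Ccne1 had the smallest unadjusted edgeR p of any member in any group comparison. It encodes cyclin E1, the Cdk2 partner that takes cells into S phase. Its 5′ end on chromosome 7, at bases 38106990 to 38108490, holds 242 read CpG positions. No methylated read was found there among 2830 and 4161 reads of the AG120 plus AZA libraries, which allows a level of up to 0.106% and 0.0721% if 3 methylated reads are taken as the limit of a count of 0. Its level was 3.01% and 0.0226% in the AG120 libraries, 3.50% and 1.10% in the AZA libraries, and 3.56% and 2.39% in the Vehicle libraries. Every AG120 plus AZA value was thus lower than every value of the other groups, although both limits exceed the 0.0226% of the second AG120 library. The difference between AG120 plus AZA and Vehicle was -2.97 points (edgeR quasi-likelihood adjusted p = 0.991 over 15583 ends), and that between AG120 plus AZA and AZA was -2.30 points (edgeR adjusted p = 1). These differences did not pass the adjusted threshold of 0.05. edgeR's likelihood ratio test and DESeq2, run as alternatives, gave adjusted p-values of 0.0454 and 0.0467 for AG120 plus AZA against Vehicle, and DESeq2 gave 0.0307 for the 4 libraries with AG120 against the 4 without.

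The stretch around the Ccne1 start is shown because, of the methylated reads of the Vehicle libraries at this end, it holds 195 of 347 and 171 of 265. It is chr7:38107441-38107740 of GRCm38.p6 from RefSeq, on the minus strand and written 5′ to 3′. Capitals mark CpGs read in at least 1 library.
Ccne1: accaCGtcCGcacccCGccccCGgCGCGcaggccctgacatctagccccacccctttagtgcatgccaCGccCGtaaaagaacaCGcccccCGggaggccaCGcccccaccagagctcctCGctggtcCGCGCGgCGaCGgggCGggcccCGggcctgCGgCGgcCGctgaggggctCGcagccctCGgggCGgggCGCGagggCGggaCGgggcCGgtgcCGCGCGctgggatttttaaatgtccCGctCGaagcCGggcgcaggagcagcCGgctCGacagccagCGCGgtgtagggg
In these 300 bases, 40 of 41 CpGs were read. Methylated reads numbered 0 of 2090 and 0 of 549 with AG120 plus AZA, 16 of 1335 and 1 of 4199 with AG120, 126 of 5751 and 84 of 4059 with AZA, and 195 of 4851 and 171 of 6370 with Vehicle. They sat at few cytosines. Bases 163 and 217 each had 45 of 137 reads methylated in the first Vehicle library and none of 104 in the second. Base 93 had 0 of 172 reads methylated in the first AG120 plus AZA library, 119 of 431 in the first AZA library, and 0 of 141 and 85 of 182 in the Vehicle libraries.

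Read coverage differed at the very positions that carried the Ccne1 methylation. Over the whole end, 10 positions were methylated at 10% or more in a Vehicle library with at least 10 reads, and none of them in both Vehicle libraries. The AG120 plus AZA libraries had at least 10 reads at 4 of these 10, all of them without a methylated read. Over positions with at least 10 reads in a library of each group, the difference was -2.03 points between AG120 plus AZA and Vehicle, and -0.134 points between AG120 plus AZA and AG120, against -1.52 points over all positions. The AG120 plus AZA libraries were read at 31 and 35 positions with at least 10 reads, and the Vehicle libraries at 100 and 96.

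The other cyclins followed no shared pattern. Ccnd1, which encodes the G1 cyclin D1, had 0% and 6.87% with AG120 plus AZA, 0.0351% and 0.300% with AG120, 0.0620% and 0.547% with AZA, and 11.3% and 2.03% with Vehicle. Both single-drug groups were below both Vehicle libraries, while the 2 combination libraries lay on either side of 1 Vehicle library. Ccne2, which encodes cyclin E2, had 0.861% and 3.83% with AG120 plus AZA and 1.05% and 0.265% with Vehicle, and its window shares sequence with the end of the non-coding gene A630034I12Rik. Ccnb1, which encodes the mitotic cyclin B1, stayed between 0% and 1.24% in all libraries.

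The ends of the cyclin-dependent kinases were at or near 0 in most libraries. Cdk1, the kinase of mitosis, had 0% and 0% with AG120 plus AZA, 0% and 3.97% with AG120, 0.0251% and 0.833% with AZA, and 2.43% and 2.04% with Vehicle. The combination values of 0 allow 0.152% and 0.140%, and both were below both Vehicle libraries, with a mean difference of -2.23 points (edgeR adjusted p = 0.991). Nearly all methylated Cdk1 reads of the Vehicle libraries came from 1 position in each library, with 115 of 358 and 91 of 98 reads, and the AG120 plus AZA libraries had no read at either. Over positions read in both groups the Cdk1 difference was 0 points. Cdk7, which activates other cyclin-dependent kinases, had no methylated read in either AG120 plus AZA or AG120 library, 0.220% and 0% in the AZA libraries, and 4.73% and 0.265% in the Vehicle libraries. Its AG120 minus Vehicle difference was -2.50 points (edgeR adjusted p = 1). The Cdk7 values of 0 with AG120 plus AZA came from 120 and 771 reads. They allow 2.50% and 0.389%, both above the 0.265% of the second Vehicle library. Cdk6, a G1 kinase, had methylated reads in 1 library only, at 2.67% in the first Vehicle library. Its 55 reads in the first AG120 library allow 5.45%. Cdk4 and Cdk2 ranged over libraries up to 4.07% and 2.23%, with Vehicle values of 0% and 4.07% for Cdk4 and 0.0366% and 1.20% for Cdk2.

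Regulators of Cdk1 and Cdk2 activity were as low. Cdc25a, a phosphatase that activates Cdk2, ranged between 0% and 3.73%. Cdc25c, a phosphatase that activates Cdk1, had 0% and 0.321% with AG120 plus AZA and 0.556% and 3.22% with Vehicle, but 9.65% and 0% with AZA. Wee1, the kinase that inhibits Cdk1, had the highest read count of any member end in a single library, with 4836 to 19308 reads per library, and stayed at or below 1.13%.

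Genes of origin licensing and replication gave 10 kept ends. Mcm2, a subunit of the replicative helicase, had 5.06% and 3.08% with AG120 plus AZA, 0.0653% and 0.169% with AG120, 0.633% and 2.08% with AZA, and 0.659% and 1.35% with Vehicle. Both combination libraries were above all the others. The AG120 plus AZA minus AG120 difference was 3.95 points (edgeR adjusted p = 1), and the AG120 plus AZA minus Vehicle difference was 3.06 points (edgeR adjusted p = 1). The methylated Mcm2 reads of the combination libraries sat at different positions in each: 132 of 133 reads at 1 position and 62 of 71 at another in the first library, and 107 of 300 at a further position in the second. At 3 positions with at least 10% in a combination library, no Vehicle library reached 10%, although Vehicle had at least 10 reads at all 3.

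Mcm5, another helicase subunit, differed in the opposite sense. It had 0.166% and 0% with AG120 plus AZA, 2.89% and 3.28% with AG120, 0.326% and 2.01% with AZA, and 0% and 0.293% with Vehicle. The AG120 libraries were the 2 highest. AG120 minus Vehicle was 2.94 points (edgeR adjusted p = 1), and AG120 plus AZA minus AG120 was -3.00 points (edgeR adjusted p = 1). Over positions read in all 8 libraries these differences were 0 points and 0.662 points. Over positions with at least 10 reads in a library of each group they were 3.35 points and -4.05 points. Here too each AG120 library had all its methylated reads at 1 position, with 94 of 356 reads in the first and 101 of 124 in the second, and each position had at least 10 reads without methylation of 10% in Vehicle.

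Gmnn encodes geminin, which blocks re-licensing by holding Cdt1. It had no methylated read among 2448 and 383 reads with AG120 plus AZA, which allows 0.123% and 0.783%. Its level was 0.0702% and 6.76% with AG120, 0.875% and 1.08% with AZA, and 1.26% and 0.930% with Vehicle. The combination libraries were below all others, although both limits exceed the 0.0702% of the first AG120 library. They had at least 10 reads at neither of the 2 positions that were methylated in Vehicle. Cdt1 itself had 0.226% and 4.37% with AG120 plus AZA and 0.838% and 1.29% with Vehicle. Orc2, a subunit of the origin recognition complex, was read in all libraries at 0.639% to 5.94%, with 3.73% and 1.72% in the AG120 plus AZA libraries and 2.41% and 3.47% in the Vehicle libraries. At 775 bp upstream of the Orc2 5′ end, 1 position was methylated in every read of all 6 libraries that covered it with at least 10 reads, which were 93 and 28 reads in the AG120 plus AZA libraries, 53 in the second AG120 library, 69 in the second AZA library, and 63 and 81 in the Vehicle libraries. The first AG120 and first AZA libraries had no read there. Mcm3, Mcm4, Mcm6, Mcm7 and Cdc45 ranged between 0% and 6.11% over all libraries. The Orc2, Mcm4, Mcm7 and Cdc45 windows overlap the ends of Gm15834, Prkdc, Ap4m1 and Ufd1, so their reads cannot be assigned to 1 gene.

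The pocket proteins and E2F factors, which repress and drive the E2F target genes, gave 12 ends. Rbl1 encodes the pocket protein p107. Its 5′ end on chromosome 2, at bases 157204034 to 157205534, had the lowest mean level of all members at 0.128%. No methylated read was found in the AG120 plus AZA libraries among 2371 and 6614 reads, which allows 0.127% and 0.0454%. Of the reads, 1 of 11483 and 0 of 1939 were methylated in the AG120 libraries, and none of 6156 and 1744 in the AZA libraries. In the Vehicle libraries 50 of 6475 and 19 of 7881 reads were methylated, which are levels of 0.772% and 0.241%. All 6 treated libraries were thus below both Vehicle libraries. The mean difference from Vehicle was -0.507 points with AG120 plus AZA, -0.502 points with AG120 and -0.507 points with AZA, and the edgeR adjusted p-values were 0.991, 1 and 1. The 3 comparisons share the Vehicle libraries.

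The Rbl1 promoter is shown because it contains nearly all of these reads and 2 matches to an E2F-type motif. It is chr2:157204485-157204784 of GRCm38.p6 from RefSeq, on the minus strand, with capitals at CpGs read in at least 1 library.
Rbl1: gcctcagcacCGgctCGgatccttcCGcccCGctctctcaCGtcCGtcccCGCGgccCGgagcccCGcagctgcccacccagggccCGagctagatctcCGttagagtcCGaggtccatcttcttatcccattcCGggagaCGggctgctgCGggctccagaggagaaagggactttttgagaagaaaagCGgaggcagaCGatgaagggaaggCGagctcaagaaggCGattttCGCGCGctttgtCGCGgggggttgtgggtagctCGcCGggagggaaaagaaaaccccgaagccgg
At base 136 no read was methylated among 21 and 501 reads with AG120 plus AZA and 64 and 14 with AZA, against 49 of 150 and 1 of 299 methylated reads with Vehicle. At base 59 no read was methylated among 272 reads of the second AG120 plus AZA library, 49 of the second AG120 library, and 11 and 139 of the AZA libraries, against 0 of 568 and 17 of 138 methylated reads with Vehicle. Neither AG120 library had a read at base 136, and the first AG120 plus AZA and the first AG120 library had none at base 59. The Rbl1 difference thus rested almost wholly on 2 cytosines, each methylated in a different Vehicle library.

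E2f6 had the highest mean level of any member 5′ end, at 4.61%. It encodes a repressive E2F that lacks a pocket protein binding domain. Its level was 1.17% and 1.96% with AG120 plus AZA, 6.35% and 9.01% with AG120, 2.32% and 8.11% with AZA, and 2.04% and 5.92% with Vehicle. The combination libraries were the 2 lowest, and their difference from Vehicle was -2.41 points (edgeR adjusted p = 1). The window chr12:16810715-16811014 of GRCm38.p6 from RefSeq, on the plus strand, is shown because its first part carries methylation that recurs between libraries.
E2f6: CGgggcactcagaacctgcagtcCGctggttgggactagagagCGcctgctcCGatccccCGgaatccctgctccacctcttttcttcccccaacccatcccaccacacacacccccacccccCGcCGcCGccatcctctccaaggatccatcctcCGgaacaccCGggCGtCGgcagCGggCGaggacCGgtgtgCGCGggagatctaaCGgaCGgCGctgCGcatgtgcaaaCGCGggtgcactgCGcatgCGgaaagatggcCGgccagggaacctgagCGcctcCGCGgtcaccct
Capitals mark CpGs read in at least 1 library. At bases 45 and 54, methylation reached 10% or more in 5 of the 6 libraries with at least 10 reads there, at base 25 in 4 of 6 and at base 62 in 3 of 6. The first AG120 plus AZA library had 10 of 10 reads methylated at bases 45 and 54, and the second had 6 of 6, below the minimum of 10. With AG120 all 173 and all 86 reads were methylated at base 45. In the second Vehicle library 142 of 226 reads were methylated at base 45, and 175 of 226 at base 54. These bases lie 170 to 133 bp upstream of the E2f6 gene model's first base. Downstream of it, 335 of 341 values of a position in a library with at least 10 reads were under 10%.

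**Figure D2:**
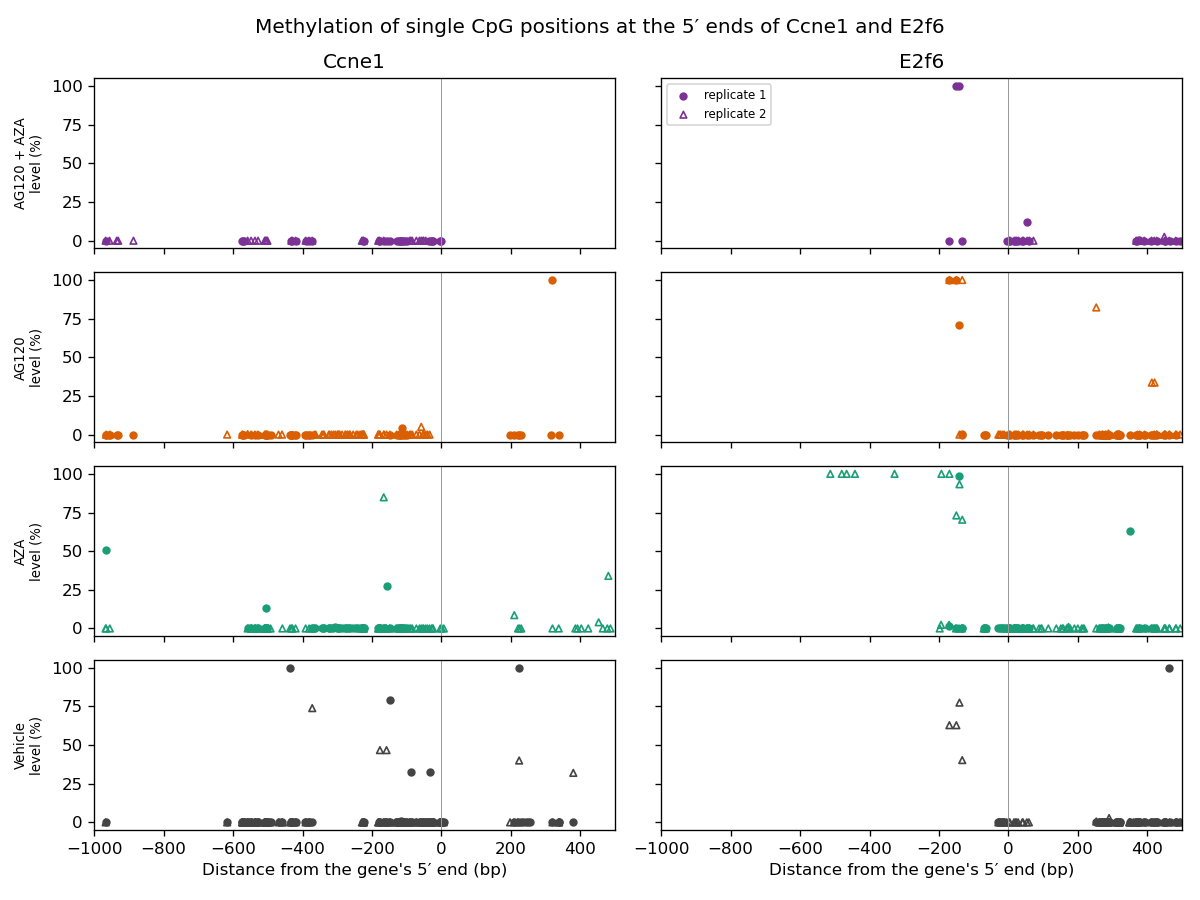
Each symbol is 1 CpG position with at least 10 reads in 1 library, placed by its distance from the first base of the gene model (bp, upstream negative) and its methylation level (%), with a row for each treatment and a symbol for each replicate. At Ccne1 the methylated positions of AG120, AZA and Vehicle scatter and do not recur between replicates, and both AG120 plus AZA libraries have every position at 0%. At E2f6 methylated positions gather between 170 and 133 bp upstream in all 4 groups.

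The remaining ends of this role spread widely between the replicates of a group. E2f3, an activating E2F, had no methylated read in either AG120 plus AZA library, 0.0891% and 0% with AG120, 0.0467% and 1.93% with AZA, and 0.648% and 0.229% with Vehicle (AG120 plus AZA against Vehicle, edgeR adjusted p = 0.991). E2f7, a repressive E2F, had 4.56% and 0.110% with AG120 plus AZA, 0% and 0.262% with AG120, 1.80% and 0.792% with AZA, and 1.84% and 3.70% with Vehicle. Both AG120 values were below both Vehicle values, with a mean difference of -2.64 points (edgeR adjusted p = 1). E2f2 had its 2 highest values with AG120, at 2.16% and 3.17%, against 0.980% and 0.606% with Vehicle. Rb1, the retinoblastoma protein gene, had 4.30% and 0% with AG120 plus AZA and 2.75% and 4.03% with Vehicle. Rbl2, which encodes p130, had 10.9% and 0% with AG120 plus AZA and 3.94% and 0% with Vehicle, over only 25 positions. E2f8, a repressive E2F, had 0% and 0% with AG120 plus AZA, 0% and 1.75% with AG120, 0.0750% and 1.56% with AZA, and 0.987% and 0% with Vehicle. Its 74 reads in the first AG120 plus AZA library allow 4.05%. The E2f8 window overlaps the ends of Gm2788 and LOC115486422.

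E2f1 and E2f4 kept both ends, and the mean levels of their ends differed widely within each gene. The E2f1 5′ end averaged 1.49%, and its 3′ end 20.8%. At the 5′ end the levels were 4.33% and 0% with AG120 plus AZA, 0.655% and 0.0504% with AG120, 0.709% and 0.0121% with AZA, and 6.11% and 0.0330% with Vehicle. At the 3′ end they were 16.7% and 0% with AG120 plus AZA, 5.10% and 100% with AG120, 0.321% and 28.3% with AZA, and 15.5% and 0.362% with Vehicle, from only 89 to 638 reads per library. One 3′ position was methylated in 0 of 107 reads of the second AG120 plus AZA library. It was methylated in 89 of 89 reads of the second AG120, 78 of 78 of the second AZA and 99 of 99 of the first Vehicle library. At the adjacent base, 61 of 61 reads of the first AG120 plus AZA library were methylated, and no other library had a read. The 100% of the second AG120 library came from 1 read position. In the second AG120 plus AZA and the first AZA library the E2f1 3′ end was not above the 5′ end. The lower coordinate end of E2f4, which overlaps an end of Exoc3l, had 1.40% and 0% with AG120 plus AZA, 0.189% and 0.0253% with AG120, 0.0598% and 0.155% with AZA, and 2.85% and 1.30% with Vehicle. Its upper coordinate end, which overlaps an end of Elmo3 and holds 10 positions, had 43.3% and 48.2% with AG120 plus AZA, 90.5% and 21.9% with AG120, 31.2% and 36.2% with AZA, and 52.9% and 73.0% with Vehicle. Both combination libraries were below both Vehicle libraries at that end, with a mean difference of -17.1 points (edgeR adjusted p = 1), and it had as few as 30 reads in 1 library.

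Among the mitotic genes, Cdc20 was the 1 member end with AG120 plus AZA above AZA at an unadjusted edgeR p under 0.05. It encodes an activator of the anaphase-promoting complex. Its levels were 1.19% and 2.13% with AG120 plus AZA, 2.59% and 0.312% with AG120, 0.132% and 0.0172% with AZA, and 1.86% and 0.516% with Vehicle. Both AZA libraries were below all other libraries. AG120 plus AZA minus AZA was 1.58 points (edgeR adjusted p = 1), and AZA minus Vehicle was -1.11 points (edgeR adjusted p = 1). The promoter, chr4:118437294-118437593 of GRCm38.p6 from RefSeq on the minus strand, is shown because 1 of its cytosines holds 81 of the 117 methylated reads of the first combination library at this end and all 104 of the second. Capitals mark CpGs read in at least 1 library.
Cdc20: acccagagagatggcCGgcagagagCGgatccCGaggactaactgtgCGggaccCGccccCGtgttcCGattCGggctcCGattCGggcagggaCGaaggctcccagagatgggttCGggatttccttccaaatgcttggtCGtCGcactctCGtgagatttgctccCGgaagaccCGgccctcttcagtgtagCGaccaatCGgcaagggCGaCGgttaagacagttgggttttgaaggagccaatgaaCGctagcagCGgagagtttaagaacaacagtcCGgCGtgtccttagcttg
Base 177, 74 bp upstream of the gene's first base, had 81 of 678 and 104 of 104 reads methylated in the AG120 plus AZA libraries. None were methylated there among 12 and 397 reads with AG120, 17 and 275 with AZA, and 216 and 110 with Vehicle. It was chosen for description after its values were seen, and no test was made of it.

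Plk1, a kinase of mitotic entry, had 1.48% and 9.29% with AG120 plus AZA, 5.41% and 4.23% with AG120, 4.29% and 0.648% with AZA, and 3.18% and 4.36% with Vehicle, and was one of 8 ends with a methylated read in every library. Aurkb, a kinase of chromosome segregation, had 1.23% and 17.0% with AG120 plus AZA, 0% and 0% with AG120, 6.48% and 0% with AZA, and 1.70% and 0.536% with Vehicle. The 17.0% came from 99 of 117 reads at 1 position. Aurka and the spindle checkpoint gene Mad2l1 did not exceed 2.57% and 4.43%, and the Aurka window overlaps an end of Cstf1. Of the other roles, the checkpoint kinase gene Chek1 had 6.90% and 0% with AG120 plus AZA and 0% and 0% with Vehicle. Top2a, the topoisomerase of dividing cells, had 8.50% and 0% with AG120 plus AZA and 0.959% and 0.639% with Vehicle. The 8.50% was 13 of 153 reads, with all methylated reads at 1 position. Mki67, which encodes the Ki-67 proliferation antigen, had 0% and 0.662% with AG120 plus AZA, 0% and 0.0577% with AG120, 0.0395% and 3.37% with AZA, and 0.244% and 0.274% with Vehicle.

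No member end passed the adjusted test in any of the 5 group comparisons or in the 3 factorial contrasts (AG120, AZA and their interaction), in which edgeR's quasi-likelihood test called 0 of 15583 ends, or 0%, in each. At an unadjusted edgeR p under 0.05 there were 2 member ends (Ccne1 and Rbl1) in AG120 plus AZA against Vehicle, 1 (Rbl1) in AG120 against Vehicle, 1 (Rbl1) in AZA against Vehicle, 2 (Ccne1 and Cdc20) in AG120 plus AZA against AZA, and 1 (Mcm2) in AG120 plus AZA against AG120. The share of all ends at that p was 4.89% in AG120 plus AZA against Vehicle, 3.12% in AG120 against Vehicle, 2.3% in AZA against Vehicle, 4.61% in AG120 plus AZA against AZA and 4.41% in AG120 plus AZA against AG120, so the members' counts were about as large as these shares give for 42 ends or smaller. In the factorial contrasts Ccne1 and E2f3 were at an unadjusted edgeR p under 0.05 for AG120, Rbl1 for AZA and Mcm5 for the interaction, each with an adjusted p of 1. Of all 15583 ends, 699, 529 and 407 were at that p in these 3 contrasts, so the members' counts were again close to the background.

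In AG120 plus AZA against Vehicle, the median difference over the 42 ends was -0.454 points, against -0.186 points over all kept ends. Of the members, 26 were lower and 16 higher in the combination, and 54.8% of all ends were lower. In 13 members both AG120 plus AZA libraries were below both Vehicle libraries, against a background of 25.3% of all ends, and in 1 member, Mcm2, both were above, against 11.5%. Among ends with levels under 20%, both were below at 30% of the members and 29.2% of all such ends. Both were above at 2.5% and 8.49%. Of these members 62.5% were lower, against 58.2% of all such ends, and the median differences were -0.454 and -0.292 points. Of the 12 pocket protein and E2F ends 10 were lower, of the 5 kinase ends 4, of the 10 licensing ends 5, and of the 5 mitotic ends 1. Over positions with at least 10 reads in a library of each group, the members' median difference was -0.168 points. Leaving out the first Vehicle library, it was -0.0192 points. At the 40 ends with levels under 20%, 32 positions were methylated at 10% or more in an AG120 plus AZA library, and the Vehicle libraries had at least 10 reads at 28 of them (87.5%). In a Vehicle library 109 positions were, and the AG120 plus AZA libraries had at least 10 reads at 64 of them (58.7%). Where both groups were read, 3 positions were at 10% or more in both.

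AG120 against Vehicle gave a median member difference of -0.230 points, against -0.0667 points over all ends, with 24 members lower and 17 higher and 52% of all ends lower. In 10 members both AG120 libraries were below both Vehicle libraries and in 4 both were above, against 20.1% and 12.5% of all ends. Among ends with levels under 20%, both were below at 25% of the members and 22.4% of all such ends. Both were above at 10% and 10.2%, and the median differences were -0.230 and -0.161 points. All 5 kinase ends were lower, and 4 of the 10 licensing ends. AZA against Vehicle gave -0.415 points, against -0.147 points over all ends, with 24 members lower and 18 higher and 53.3% of all ends lower. In 10 members the AZA libraries were below both Vehicle libraries and in 3 above, against 19.6% and 12.6%. Among ends with levels under 20%, both were below at 22.5% of the members and 19.5% of all such ends. Both were above at 7.5% and 12.8%, and the median differences were -0.415 and -0.0930 points. Without the first Vehicle library the AZA against Vehicle median over the 42 members was 0.0130 points, and that of AG120 against Vehicle was 0 points. Over positions read in all 8 libraries, which left 16 member ends, the AZA against Vehicle median was 0.292 points and the AG120 against Vehicle median 0 points. The comparisons with Vehicle share their Vehicle libraries.

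Against AZA, the AG120 plus AZA libraries differed by a median of -0.00908 points over the members, with 21 lower and 19 higher and 51.1% of all ends lower. There were 8 ends with both libraries below and 3 with both above, against 20.2% and 12.8% of all ends. Against AG120, the median was 0 points, with 20 lower and 20 higher and 50.8% of all ends lower. There were 7 ends below and 2 above, against 17.1% and 12.2% of all ends.

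**Figure D3:**
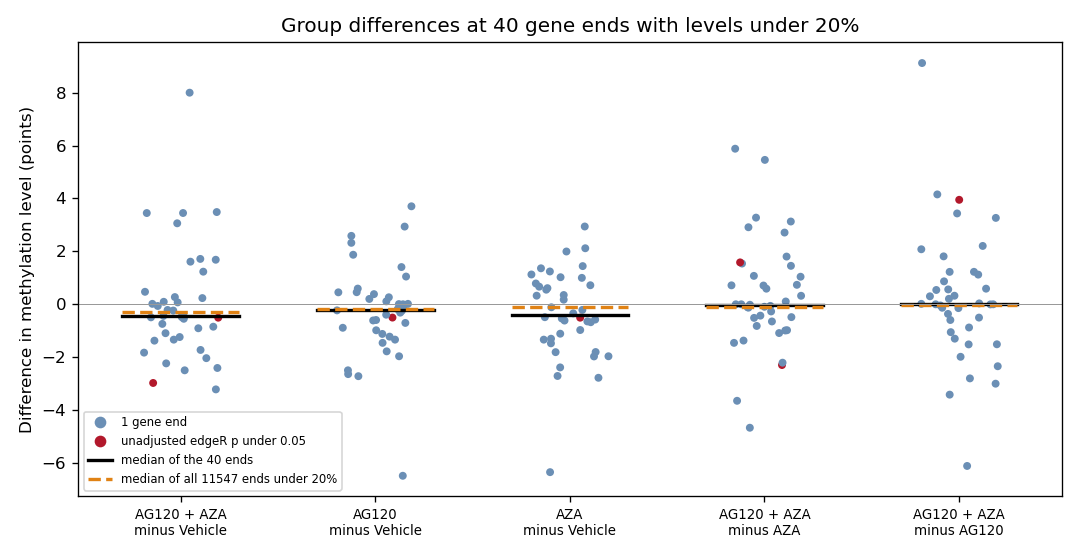
Each point is the difference in methylation level between the means of 2 groups (percentage points) at 1 of the 40 member ends with levels under 20%, for 5 comparisons on the horizontal axis; red points have an unadjusted edgeR p under 0.05. Black bars are medians over the 40 ends and dashed bars medians over all 11547 ends under 20%; single ends spread over several points either side of 0 in each comparison, while the medians lie within 0.5 points of it.

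Member ends without a single methylated read were more common in the AG120 plus AZA libraries, at 19 and 19 of 42 ends, than with AG120 (15 and 13), with AZA (6 and 9) or with Vehicle (4 and 7). The AG120 plus AZA share was 45.2% in both libraries, and the Vehicle shares were 9.52% and 16.7%. Over all kept ends the share was 29.6% and 28.0% with AG120 plus AZA, 22.4% and 20.9% with AG120, 15.9% and 13.7% with AZA, and 11.2% and 9.81% with Vehicle, so the order of the groups was that of all ends. Taken by group, the order was also the reverse of that of reads per member end and of member CpG positions read. The second AG120 library had a median of 2343 reads and 13 ends without a methylated read. The first AG120 plus AZA library had 2501 reads and 19 such ends. Positions read were 1682 and 1599 with AG120 plus AZA and 2152 and 2011 with AG120. They were 2619 and 2583 with AZA and 2847 and 2807 with Vehicle. The part of depth and covered positions was not tested. At 10 member ends neither AG120 plus AZA library had a methylated read, against 4 with AG120, 3 with AZA and 2 with Vehicle. The matching shares over all kept ends were not computed, so these counts cannot be read as particular to the members.

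The methylated reads at these ends sat at single positions. At the 40 ends with levels under 20%, 229 of 320 pairs of end and library had a methylated read, and in the median pair 94.4% of the methylated reads lay at 1 position. In 210 pairs 1 position held 50% or more of them. The median pair had 2 positions with a methylated read out of 57 positions read. A pair with 1 methylated read has all of it at 1 position by construction. Of the 138 pairs with at least 20 methylated reads, 120 had 50% or more of them at 1 position. This concentration was not computed for all ends with levels under 20%. Of the positions with at least 10 reads, those with any methylated read were 3.29% and 2.43% with AG120 plus AZA, 2.78% and 4.14% with AG120, 3.93% and 3.87% with AZA, and 4.65% and 4.62% with Vehicle. Over all ends with levels under 20%, the shares were 5.44% and 5.51% with AG120 plus AZA, 5.54% and 6.27% with AG120, 6.13% and 6.29% with AZA, and 6.92% and 7.78% with Vehicle. Both AG120 plus AZA libraries were thus below both Vehicle libraries by this measure, at the member ends and at all ends with levels under 20%. Over all kept ends, the methylated ones included, the shares were 14.8% and 14.4% with AG120 plus AZA, 12.9% and 15.7% with AG120, 13.0% and 13.0% with AZA, and 13.3% and 14.3% with Vehicle, and there both AG120 plus AZA libraries were above both Vehicle libraries.

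Methylation at the members seldom recurred between libraries. Of 219 positions that reached 10% in a library and had at least 10 reads in 2 or more, 25 (11.4%) reached it in 2 or more libraries, against 24.7% over all ends with levels under 20%. These 25 positions lay at 14 ends, and 6 of them, at E2f6, Mcm2 and Orc2, reached 10% in 3 or more libraries. As a description over the 40 ends, the correlation of levels between 2 libraries ranged between -0.102 and 0.0413 within groups and between -0.152 and 0.424 across groups, while over all kept ends it was 0.758 to 0.803 within groups and 0.752 to 0.799 across groups. The points share their libraries, and the member levels span few percentage points.

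**Figure D4:**
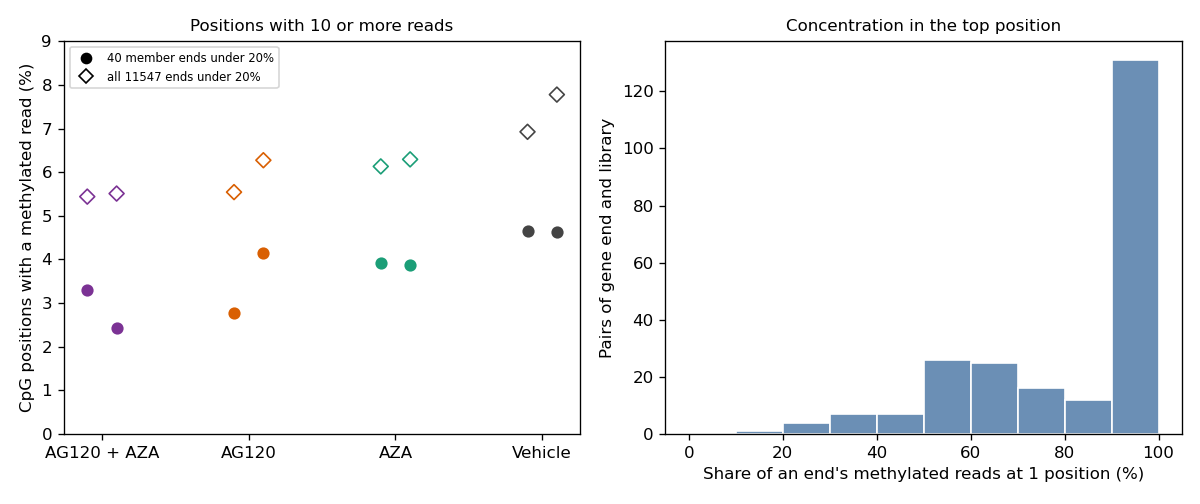
Left, the share of CpG positions with at least 10 reads that had a methylated read (%), for each of the 2 libraries per treatment, at the 40 member ends under 20% (filled) and at all 11547 such ends (open); the AG120 plus AZA members lie at 3.29% and 2.43%, the Vehicle members at 4.65% and 4.62%. Right, the number of pairs of member end and library by the share of the end's methylated reads that sat at its top position (%), with a median of 94.4%.

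E2F factors bind promoters at motifs with a central CG, so the CpGs within such motifs were examined. The motif TTTNNCGC, an E2F-type motif, was searched on both strands of RefSeq promoters that run from 250 bases before to 50 after each start. It was found in 16 of 45 promoters of 40 members (35.6%), against 5.20% of 32619 promoters in all. TTTGAA, the motif of the cell cycle genes homology region, was found in 14 (31.1%), against 17.6%, and CCAAT in 31 (68.9%), against 37.6%. A match is not evidence of binding. Reads were available at 23 cytosines in the CpGs of TTTNNCGC matches, in 12 member genes. Methylated reads there were 0 of 659 and 0 of 567 with AG120 plus AZA, which allows 0.455% and 0.529%. They were 0 of 1834 and 68 of 766 with AG120, 0 of 1558 and 24 of 833 with AZA, and 37 of 961 and 0 of 951 with Vehicle. In each of the 8 libraries at most 2 of these cytosines had a methylated read.

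Other genes of the same processes were as low. The lists of other replication genes, other mitosis genes and other cell cycle regulators kept 30, 35 and 31 ends, with median mean levels of 1.44%, 0.996% and 1.56%. In AG120 plus AZA against Vehicle their median differences were -0.917, -0.0290 and -0.714 points, with 20 of 30, 21 of 35 and 18 of 31 ends lower. At 11, 13 and 7 ends both combination libraries were below both Vehicle libraries, and at 1, 3 and 2 both were above. Of all kept ends, 54.8% were lower, 25.3% had both below and 11.5% both above. Over all ends with levels under 20%, these shares were 58.2%, 29.2% and 8.49%, and the median difference was -0.292 points. No end of these lists passed the adjusted edgeR test in any comparison. At an unadjusted edgeR p under 0.05 there were 2, 3 and 0 ends in AG120 plus AZA against Vehicle, 3, 1 and 1 in AG120 against Vehicle, and 0, 2 and 0 in AZA against Vehicle. The shares of all ends at that p were 4.89%, 3.12% and 2.3% in these comparisons.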

How the data were processed

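RRBS was measured in 8 libraries of 4 treatments. Per the submitters' processing notes, the authors' tools included Bismark 0.22.3, Trim Galore 0.4.4, edgeR 3.32 and R 4.0.2, with the mm10 build. What each did, and with which options, is not given in the sources used here. The deposited values are counts of methylated and of unmethylated reads per CpG cytosine and library, with both strands separate. Positions on chromosomes 1 to 19 and X were used. Counts were summed over gene ends (1000 bp outside to 500 bp inside), and ends with 3 or more positions and no library under 20 reads were tested together with edgeR 4.0.16 (R 4.3.3), by a quasi-likelihood F-test with a term for each library and a methylation term for each group, at a Benjamini-Hochberg adjusted p of 0.05. Adjusted p-values were taken over all 15583 ends. DESeq2 1.42.0 and limma 3.58.1 were alternatives, as were other filters, windows and position sets. Levels are methylated reads over all reads, in percent, and differences are of group means. Intervals and limits of a count of 0 cover counting error only. Reads were counted at each cytosine, so 1 sequenced fragment can add to several counts at an end. The limits treat these counts as separate and are then too low. The members and lists were chosen with earlier results of these data known. Named were the 4 ends with the smallest p in each comparison, the 6 highest, the 4 widest in range and genes with both ends kept; others are named to account for every member. RefSeq promoters supplied sequences and orientation. The main test did not pair libraries by replicate number. Correlations of same-numbered deviations from the group means lay between -0.0142 and 0.00468, which cannot show whether same-numbered libraries were paired by mouse or batch. No genome sequence was used.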

Additional observations from a re-analysis of the deposited data

How the results depend on the processing

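The number of ends called over all 15583 was 0 in each of the 8 contrasts with edgeR's quasi-likelihood test, with limma, and under TMM scaling, the other filters and windows. With edgeR's likelihood ratio test the calls were 3 in AG120 against Vehicle, 11 in AZA against Vehicle, 220 in AG120 plus AZA against Vehicle, 166 against AZA, 213 against AG120, and 278, 175 and 76 for the AG120, AZA and interaction contrasts. With DESeq2 they were 2, 1, 142, 147, 252, 338, 189 and 94 in the same order. Restricted to positions read in all 8 libraries, 1 end was called in the AG120 contrast. The replicate block, a term for the replicate number, left 0 calls in every contrast. Leaving out 1 library gave 0 to 1 calls in AG120 against Vehicle and in the AG120 contrast, the 1 without AG120 replicate 1, and 0 in the others.

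The members' median difference was 0.292 points for AZA against Vehicle and 0 points for AG120 plus AZA against Vehicle over positions read in all 8 libraries (16 ends), and 0 and 0.661 points as means of position levels (9 ends); AG120 plus AZA against AG120 then gave 0.661 points. Over positions read in both groups, an alternative chosen after seeing the data, AG120 plus AZA against Vehicle gave -0.168 points. Leaving out 1 library, the medians ranged between -0.578 and -0.0192 points for AG120 plus AZA against Vehicle, -0.534 and 0 for AG120 against Vehicle, -0.647 and 0.0130 for AZA against Vehicle, -0.264 and 0.0278 against AZA, and -0.494 and 0.00837 against AG120. Over positions read in all 8 libraries, the E2f4 lower coordinate end in AZA against Vehicle was 0.0275 points and Mcm5 in AG120 plus AZA against AG120 was 0.662 points, both reversed; fewer positions remain by construction. These runs covered the 4 ends with the smallest p in each comparison, and no other of those differences reversed. Over positions read in all 8 libraries, Cdk1 in AG120 plus AZA against Vehicle, Mcm5 in AG120 against Vehicle and E2f3 in AG120 plus AZA against AZA were 0. That of Cdk1 was 0 also over positions read in both groups. Differences at other ends were not in this count. Over positions read in both groups, the E2f4 upper coordinate end in AZA against Vehicle was 34.7 points. Its means over all positions were 33.7% and 62.9%. In AG120 plus AZA against Vehicle, that end and E2f6 kept their sign, at -17.7 and -5.09 points. Ccne1 in AG120 plus AZA against Vehicle passed the threshold with the likelihood ratio test and DESeq2 only. With 2 libraries a group, depths differing between groups and most positions unread in some library, differences of a few points at single ends were not resolved.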
